A study of Caenorhabditis elegans with 24 samples.

Results

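Body wall muscle cells sorted from *daf-16(lf); daf-2(lf)* double mutants were compared with the unselected live cells of the same genotype in 6 of the 24 mRNA-seq libraries of the series, 3 of “muscle cells” and 3 of “all cells”. The 6 libraries were chosen by their labels alone. Cells were dissociated from age-matched young adult hermaphrodites that carried a transgene expressing GFP in body wall muscle. GFP-positive cells that excluded propidium iodide, a dye that enters dead cells, were kept as muscle cells, and cells that excluded the dye were kept as all cells without a gate on GFP, so that all cells also held muscle. The double mutant carried the deletion allele *daf-16(mu86)* and the temperature-sensitive allele *daf-2(e1370)*, where lf stands for loss of function. It was compared in turn with *daf-2(lf)* animals (3 muscle cell and 3 all cells libraries), which shared the *daf-2* allele and the GFP transgene but kept *daf-16*, and with *daf-16(lf)* animals (4 muscle cell and 2 all cells libraries), which kept *daf-2*. Both *daf-2(lf)* strains were raised at the permissive temperature until the last larval stage and then shifted to the restrictive temperature, whereas *daf-16(lf)* animals were kept at the higher temperature throughout. The promoter driving GFP was not given in the sources used here. Each gene's value was its TPM, a relative level that is scaled for transcript length and has the same total in every library, so that the depth of a library cannot be read from it.

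DAF-2 is the only insulin/IGF-1 receptor of *C. elegans*, and a kinase cascade downstream of it keeps the FOXO transcription factor DAF-16 out of the nucleus. When insulin/IGF-1 signaling (IIS) is low, DAF-16 enters the nucleus and changes transcription, so the double mutant represents a low IIS state in which that factor is missing. Body wall muscle is the striated muscle that moves the animal: thick filaments of myosin and paramyosin slide along thin filaments of actin, tropomyosin and troponin, and dense bodies and M-lines anchor both to the basement membrane and the cuticle. The study reports the muscle cell replicates as independent. For each gene, SEs and p-values here use a spread pooled within all 8 groups of the 24 libraries, not that of the double mutant samples alone. The comparison asks which transcripts were enriched in, or depleted from, the sorted muscle cells of animals that lack DAF-16.

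The genotype and the sort were checked first. Of the 14 *daf-16* transcripts in the table, 9 were listed at 0 in all 6 double mutant libraries, which is how they were picked. Their sum was between 23.4 and 38.05 TPM in *daf-2(lf)* muscle cells and between 18.1 and 37.3 TPM in *daf-2(lf)* all cells. The sort was read from 3 markers of body wall muscle. *unc-54*, the major myosin heavy chain of body wall muscle (WBGene00006789, chromosome I, 14855901 to 14863482 on the reverse strand of WBcel235, 9 exon blocks), had 2852, 3430 and 3752 TPM in muscle cells, against 638, 530 and 452 TPM in all cells. *unc-15*, which encodes paramyosin, the core of the thick filament (WBGene00006754, chromosome I, 7376604 to 7383197 on the reverse strand, 11 exon blocks), had 2433, 3208 and 4192 TPM in muscle cells and 587, 507 and 484 TPM in all cells. For both genes every muscle cell library lay above every all cells library. *myo-3*, the minor myosin heavy chain at the centre of the filament (WBGene00003515, chromosome V, 12226817 to 12234343 on the reverse strand, 7 exon blocks), had 18.9, 332 and 332 TPM in muscle cells and 62.6, 66.3 and 57.2 TPM in all cells. Here muscle cell replicate 1 lay below all cells while replicates 2 and 3 lay above them.

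Muscle cell replicate 1 stood apart from the other muscle cell libraries in a way that followed transcript length. Among genes averaging at least 10 TPM in muscle cells, its median deviation from the mean of the other 2 muscle cell libraries, on the log2(TPM + 1) scale, was -0.42 for the 1585 genes whose longest transcript was under 1000 bases. It was -0.62 for genes of 1000 to under 2000 bases, -1.07 for genes of 2000 to under 4000 bases and -1.71 for the 127 genes of 4000 bases or more. The all cells libraries deviated by between -0.27 and 0.18 in every length class. That library also had the fewest genes at 1 TPM or more, 7650, against 9741 and 11173 in the other muscle cell libraries and between 13469 and 14152 in all cells. The submitters used 2 library kits for the series without saying which library had which, so the part that a kit, RNA quality or the cells themselves had in this was not tested. Several results that rest on long genes, but not all, are given with and without replicate 1.

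**Figure D1:**
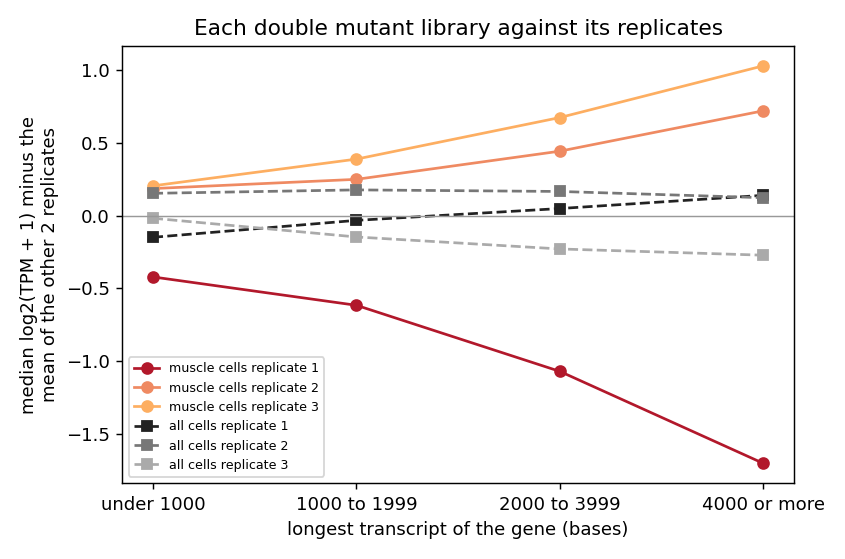
Median deviation of each double mutant library from the mean of the other 2 replicates of its cell type (y axis, log2(TPM + 1)) for genes in 4 classes of longest transcript length in bases (x axis). Circles and solid lines are muscle cells and squares and dashed lines are all cells; muscle cell replicate 1 goes down to -1.71 in the longest class, whereas the all cells libraries stay between -0.27 and 0.18.

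With TPM used as given, the 2 sorted populations differed in most of the genes tested. Genes of the contractile apparatus, the dense bodies, neuromuscular receptors and mitochondrial respiration were higher in muscle cells, and genes of the intestine, hypodermis, pharynx and proton pump were lower. Across the 14714 genes that reached 1 TPM in 3 or more of the 24 libraries, 1220 genes (8.29%) were higher and 8736 genes (59.4%) were lower in muscle cells than in all cells (limma on log2(TPM + 1), moderated test with Benjamini-Hochberg adjustment, adjusted p under 0.05). The median log2 difference over all genes tested was -1.09. In 1250 genes (8.5%) all 3 muscle cell libraries lay above all 3 all cells libraries, and in 9131 genes (62.1%) all 3 lay below.

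The number of genes called and the split between higher and lower depended on how libraries were scaled to each other. Of 14714 genes, 9956 were called with TPM as given, 7140 under median-of-ratios scaling and 6208 under quantile normalization. Median-of-ratios scaling moved the median of all genes by 0.72 on the log2 scale and gave 2586 higher and 4554 lower genes, and quantile normalization moved it by 1.12 and gave 3462 higher and 2746 lower. A gene near the median can therefore carry either sign, and the lists below are read against the median of -1.09. The lists were drawn up with earlier results of these data known, and each count is to be read against the percentages of all genes. With TPM as given these were 8.29% higher and 59.4% lower. Under median-of-ratios scaling they were 17.6% and 31%, and under quantile normalization 23.5% and 18.7%. Without muscle cell replicate 1 the counts were 1415 higher and 6682 lower, with a median of -0.83. Because the samples are bulk preparations, fewer cells of a type and less RNA of that type per cell cannot be told apart.

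**Figure D2:**
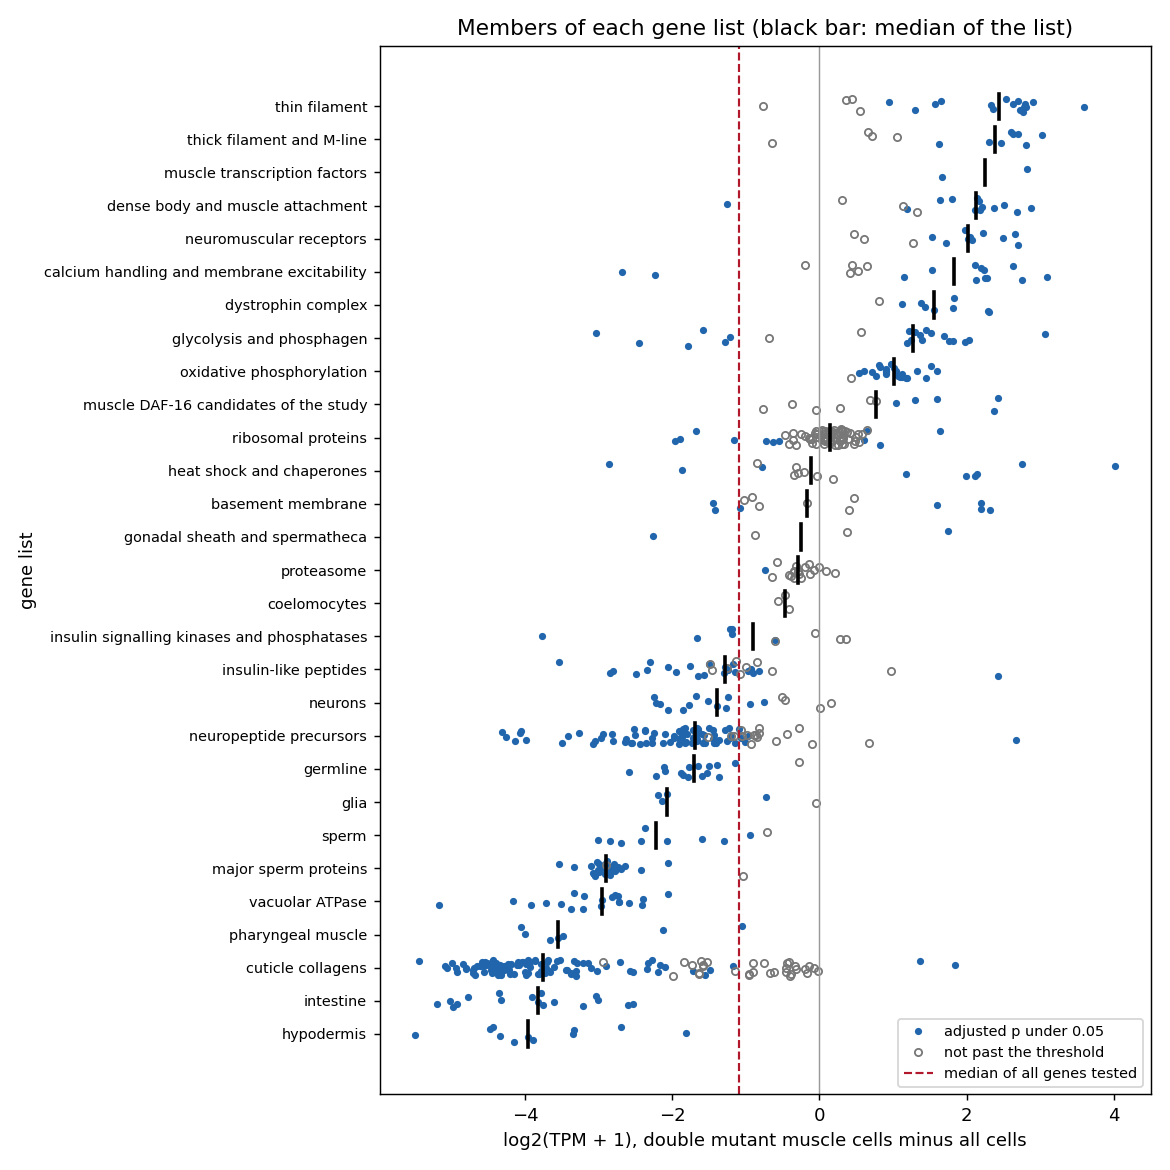
Log2(TPM + 1) of double mutant muscle cells minus all cells (x axis) for the tested members of 29 gene lists (y axis, ordered by median). Filled points passed an adjusted p of 0.05, open points did not, black bars are list medians and the dashed line is the median of all genes tested, -1.09; the muscle lists lie furthest right and hypodermis, intestine and cuticle collagens furthest left.

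Genes of the thick filament were higher in muscle cells. Of 12 tested genes of the thick filament and M-line, 8 were higher, none was lower and the median log2 difference was 2.39. The myosin light chains were among the most abundant transcripts of the muscle cells. *mlc-3*, the alkali light chain, had 13957, 10872 and 13067 TPM in muscle cells, against 1769, 1384 and 1497 TPM in all cells (log2 difference 3.03 ± 0.19 SE, limma adjusted p = 6.46e-10). The regulatory light chains *mlc-1* and *mlc-2* were higher by 2.80 ± 0.25 and 2.70 ± 0.25 on the log2 scale, although their near-identical coding sequences mean that reads may be split between them. *unc-54* was higher by 2.63 ± 0.52 (limma adjusted p = 2.13e-04) and *unc-15* by 2.61 ± 0.44 (limma adjusted p = 4.59e-05).

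The thick filament genes that did not pass were mostly long. *myo-3* gave a log2 difference of 1.05 ± 0.71 (limma adjusted p = 0.193) with all libraries and 2.40 (limma adjusted p = 1.73e-04) without muscle cell replicate 1. Titin-like proteins of the sarcomere, picked after their values were seen, gave the same kind of contrast. *unc-22*, which encodes twitchin, had 1.83, 29 and 33.5 TPM in muscle cells and 26.2, 23.3 and 15.8 TPM in all cells, so that its groups overlapped. *unc-89*, which encodes the M-line protein obscurin, had 15.4, 53.8 and 76.1 TPM in muscle cells and 25, 28.3 and 22 TPM in all cells, with an adjusted p of 0.286 in limma that became 0.0414 without replicate 1. These genes were not higher in *daf-2(lf)* muscle cells either. There *myo-3* differed by 0.65 (limma adjusted p = 0.417), *unc-89* by 0.15 (limma adjusted p = 0.81) and *unc-22* by -1.96 (limma adjusted p = 0.0108). *lim-9*, which also did not pass in the double mutant, was higher in *daf-2(lf)* by 1.35 (limma adjusted p = 0.00996). Over the 7 lists of body wall muscle together, 63 of 77 tested genes under 4000 bases were higher with a median of 2.15, against 4 of 13 genes of 4000 bases or longer with a median of 0.66. Without muscle cell replicate 1 these were 73 of 77 and 9 of 13, with medians of 2.44 and 1.46.

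Thin filament genes rose to a like degree. Of 20 tested, 16 were higher and none lower, with a median log2 difference of 2.45. *pat-10*, the troponin C of body wall muscle that binds calcium, had 13316, 17242 and 18905 TPM in muscle cells and 2056, 2270 and 2237 TPM in all cells (log2 difference 2.90 ± 0.17, limma adjusted p = 6.46e-10). The troponin T genes *tnt-2* and *mup-2* were higher by 2.80 ± 0.26 and 2.79 ± 0.20. *tni-3*, a troponin I gene, gave the largest difference of the list, with 264, 594 and 1270 TPM in muscle cells against 58.8, 42.4 and 43.1 TPM in all cells (3.59 ± 0.76, limma adjusted p = 4.21e-04). Its muscle cell libraries differed widely among themselves, and all lay above all cells. *act-2*, an actin gene whose coding sequence is nearly the same as that of other actins, had 124, 207 and 316 TPM in muscle cells and 353, 312 and 364 TPM in all cells and did not pass (limma adjusted p = 0.116).

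Dense bodies, the attachment sites of thin filaments, were represented by 16 tested genes, of which 12 were higher and 1 lower (median 2.13). *unc-95*, a LIM domain protein of dense bodies, had 135, 236 and 206 TPM in muscle cells and 26.5, 27.4 and 20.9 TPM in all cells (2.87 ± 0.23, limma adjusted p = 6.21e-09). The LIM proteins *alp-1* and *unc-97* and *pat-4*, the integrin-linked kinase of these sites, were higher by 2.69 ± 0.20, 2.36 ± 0.27 and 2.50 ± 0.32. *dim-1*, an immunoglobulin protein that stabilizes the filaments near the membrane, reached 940, 2179 and 1758 TPM in muscle cells against 324, 368 and 304 TPM in all cells. The lower gene was *unc-52*, picked after its values were seen, which encodes the basement membrane proteoglycan perlecan. It had 16.47, 51.3 and 72.3 TPM in muscle cells and 87.8, 108 and 94.7 TPM in all cells, and its adjusted p in limma was 0.00888 with all libraries and 0.0955 without muscle cell replicate 1. Its difference of -1.26 lay near the median of all genes, and no gene of the list was lower under either of the other scalings.

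Calcium handling and membrane excitability gave 11 higher and 2 lower genes of 18 tested, with a median of 1.83. *csq-1*, which encodes calsequestrin, the calcium store protein of the sarcoplasmic reticulum, had 1333, 1112 and 1453 TPM in muscle cells and 206, 191 and 176 TPM in all cells (2.75 ± 0.21, limma adjusted p = 3.99e-09). *sca-1*, the pump that refills this store, was higher by 2.24 ± 0.22. Potassium channels showed similar differences: *sup-9*, a subunit of a background channel, had between 24.3 and 25.6 TPM in muscle cells and between 1.70 and 2.30 TPM in all cells (3.09 ± 0.31), and *shk-1*, a voltage-gated channel, was higher by 2.63 ± 0.25. *itr-1*, the inositol trisphosphate receptor, which acts in the gut, gonad and pharynx, went the other way with 0.0223, 0.217 and 0.623 TPM in muscle cells and 4.73, 9.50 and 7.76 TPM in all cells (-2.68 ± 0.24, limma adjusted p = 2.40e-08). The other lower gene was the sodium-calcium exchanger gene *ncx-1* (-2.23 ± 0.35), named after its values were seen.

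Receptors and scaffolds of the neuromuscular junction were also enriched in muscle cells, although their levels were low. Of 13 tested genes 10 were higher and none lower (median 2.02). *unc-49*, the GABA receptor of body wall muscle, had 132, 86.2 and 116 TPM in muscle cells and 22.3, 18.9 and 10.8 TPM in all cells (2.65 ± 0.35, limma adjusted p = 2.71e-06). *unc-29* and *lev-1*, subunits of the levamisole-sensitive acetylcholine receptor, were higher by 2.22 ± 0.38 and 2.50 ± 0.46. *oig-4*, a secreted immunoglobulin protein that stabilizes clusters of that receptor, was higher by 2.70 ± 0.26. In the dystrophin complex, which links the cytoskeleton to the membrane, 8 of 9 tested genes were higher and none lower (median 1.55). The sarcoglycan genes *sgcb-1*, *sgn-1* and *sgca-1* differed by 2.30 ± 0.42, 2.28 ± 0.36 and 1.81 ± 0.51, and *dyb-1*, which encodes dystrobrevin, by 1.83 ± 0.36.

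Both tested transcription factors of muscle identity were higher. *hlh-1*, the MyoD homolog, had 36.6, 43.9 and 38.6 TPM in muscle cells and 5.31, 6.62 and 2.93 TPM in all cells (2.82 ± 0.25, limma adjusted p = 1.82e-08). *unc-120*, the SRF homolog, had 14.6, 91.8 and 87.7 TPM in muscle cells and 10.7, 21.1 and 14.5 TPM in all cells (1.66 ± 0.47, limma adjusted p = 0.00460). Muscle cell replicate 1 lay inside the range of all cells for *unc-120* but far above it for *hlh-1*. Over the 7 muscle lists, 67 of 90 tested genes were higher and 3 lower, with a median of 2.05, and the counts were 80 and 2 under median-of-ratios scaling and 84 and 2 under quantile normalization. Their summed level was 89218, 108035 and 117449 TPM in muscle cells and 17548, 17080 and 15854 TPM in all cells.

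**Figure D3:**
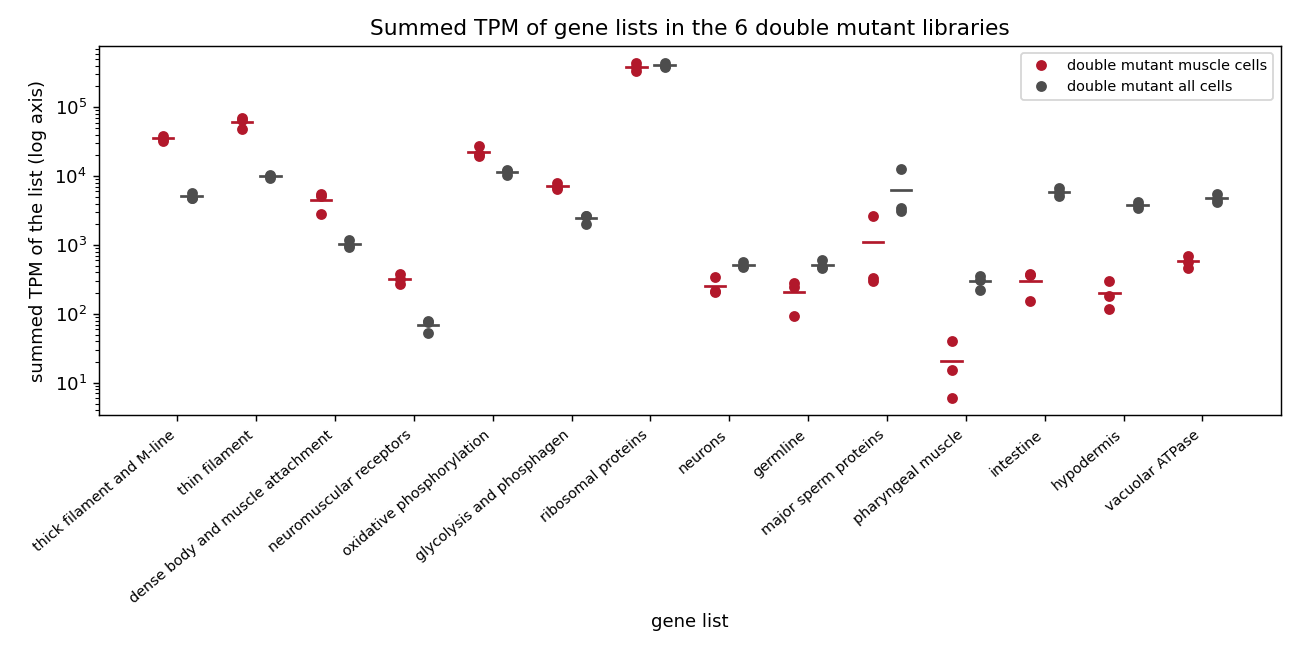
Summed TPM of 14 gene lists (y axis, log scale) in each double mutant library, with muscle cells to the left of all cells for each list; points are libraries and bars are means of 3. The muscle, respiration and glycolysis lists sit higher in muscle cells, ribosomal proteins overlap, and the lists from neurons to vacuolar ATPase sit lower in muscle cells.

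The basement membrane list was divided. The collagen IV genes *emb-9* and *let-2*, which form the network of the basement membrane, had between 634 and 673 TPM and between 1235 and 1327 TPM in muscle cells, against 124 to 168 TPM and 214 to 320 TPM in all cells (2.2 ± 0.20 and 2.32 ± 0.47). *ost-1*, the homolog of the collagen-binding protein SPARC, had 2977, 3114 and 2855 TPM in muscle cells and 671, 677 and 598 TPM in all cells (2.2 ± 0.23, limma adjusted p = 1.45e-07). *mig-6*, which encodes papilin, was higher by 1.59 ± 0.29. These were the 4 higher genes of 13 tested, and 3 were lower, with a list median of -0.16 that became 0.84 under median-of-ratios scaling, 0.91 under quantile normalization and 0.70 without muscle cell replicate 1. Transcripts of *emb-9* and *let-2* are longer than 4000 bases, and neither gene was low in that replicate. Lower were *lam-3*, *nid-1* and *pxn-2*, which encode a laminin, nidogen and a peroxidasin. Their differences of -1.45, -1.41 and -1.08 lay near the median of all genes, -1.09. Of the list, 2 genes were lower under median-of-ratios scaling and none under quantile normalization, so these calls do not set the genes apart.

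Genes of energy metabolism were mostly higher in muscle cells, and in glycolysis isozymes of the same step differed in direction. Of 22 tested genes of glycolysis and the phosphagen system 14 were higher and 6 lower (median 1.27). Aldolase showed the widest contrast. *aldo-1* had 1126, 1132 and 1237 TPM in muscle cells and 162, 141 and 116 TPM in all cells (3.06 ± 0.21, limma adjusted p = 2.02e-09). *aldo-2*, the other aldolase gene, had 31, 30.1 and 53.4 TPM in muscle cells and 374, 304 and 263 TPM in all cells (-3.04 ± 0.59, limma adjusted p = 2.05e-04). Exons of *aldo-2* overlap those of F01F1.3, and whether the counting used strand was not stated, so that reads of these 2 genes may be mixed. F01F1.3 itself went the other way, with 115, 59.0 and 118.5 TPM in muscle cells and 7.34, 7.0 and 9.60 TPM in all cells (3.40 ± 0.47).

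Other steps also had isozymes on both sides. For pyruvate kinase, which makes the last ATP of glycolysis, *pyk-1* had 142.4, 220 and 292 TPM in muscle cells and 71.8, 89.2 and 82.3 TPM in all cells (1.36 ± 0.23), whereas *pyk-2*, whose exons overlap another gene, had 2.25, 9.66 and 4.94 TPM in muscle cells and 23.3, 42.8 and 30.3 TPM in all cells (-2.45 ± 0.40). For phosphofructokinase, the committed step, *pfk-1.1* had 59.0, 111 and 118 TPM in muscle cells and 27.8, 29.1 and 26.1 TPM in all cells (1.70 ± 0.25), whereas *pfk-1.2* was under 1 TPM in muscle cells and between 3.26 and 3.59 TPM in all cells (-1.58 ± 0.24). For glyceraldehyde-3-phosphate dehydrogenase, *gpd-3* and *gpd-2* were higher by 2.03 ± 0.24 and 1.44 ± 0.25, *gpd-1* had a log2 difference of -1.28 ± 0.43 (limma adjusted p = 0.0126) and *gpd-4* did not pass. For hexokinase, which starts the pathway, *hxk-2* had 33.6, 37.7 and 40.1 TPM in muscle cells and 17.3, 16.108 and 12.3 TPM in all cells (1.24 ± 0.24). The other hexokinase genes were *hxk-1* (-1.22 ± 0.47, limma adjusted p = 0.0290), which did not pass under the other scalings or without muscle cell replicate 1 (limma adjusted p = 0.156), and *hxk-3*, which did not pass. The genes *pyk-1*, *pfk-1.1*, *pfk-1.2*, *gpd-1*, *gpd-2*, *gpd-4* and the hexokinase genes were picked after their values were seen, and the *gpd* genes include near-identical copies. The lower calls of *gpd-1* and *pfk-1.2* lie near the median of all genes and shrank to -0.38 and -0.19 under quantile normalization.

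**Figure D4:**
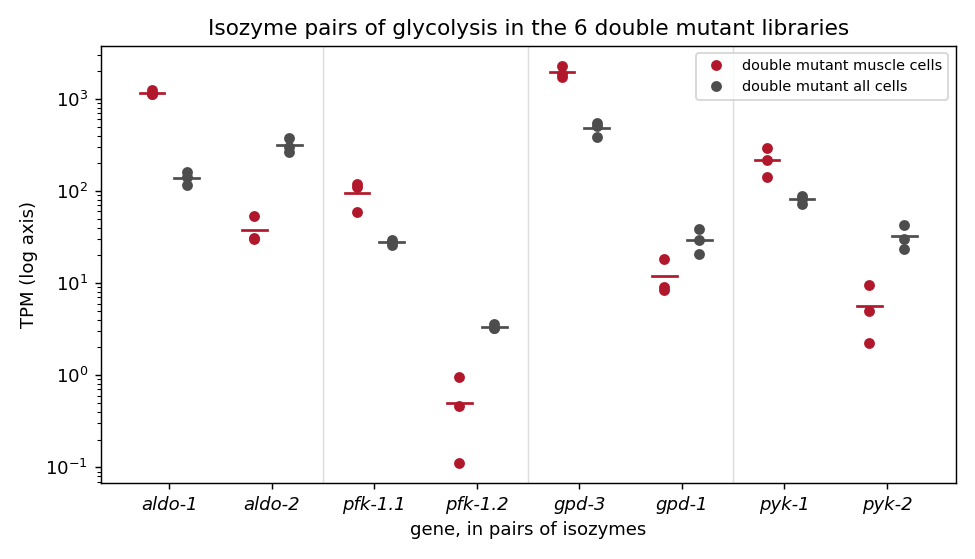
TPM (y axis, log scale) of 4 pairs of glycolytic isozymes, some picked after their values were seen, (x axis) in the 6 double mutant libraries, with muscle cells to the left of all cells; points are libraries and bars are means of 3. In each pair the isozyme drawn first is higher in muscle cells and the one drawn after it is lower.

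Oxidative phosphorylation was higher in a more even manner. Of 25 tested genes across complexes I to V 24 were higher and none lower, and their differences lay between 0.43 and 1.59 with a median of 1.02. *ucr-2.2*, a core subunit of complex III, had 195, 195 and 261 TPM in muscle cells and 77.2, 78.6 and 58.2 TPM in all cells (1.59 ± 0.26, limma adjusted p = 2.79e-05). The complex II genes *mev-1* and *sdha-1* were higher by 1.51 ± 0.19 and 1.45 ± 0.25. *cyc-2.1*, which encodes cytochrome c, had the highest level of the list with 2912, 2474 and 3316 TPM in muscle cells and 1459, 1449 and 1243 TPM in all cells (1.06 ± 0.16). All 25 were higher under median-of-ratios scaling and 20 under quantile normalization, with none lower under either.

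The vacuolar proton pump was depleted throughout. All 20 tested subunits of the V-ATPase, which acidifies vesicles and the surfaces of transporting epithelia, were lower in muscle cells (median -2.96), and all 20 stayed lower under median-of-ratios scaling and 19 under quantile normalization. *vha-6*, the membrane subunit of the intestine, had 3.76, 1.79 and 6.01 TPM in muscle cells and 139, 167 and 183 TPM in all cells (-5.17 ± 0.43, limma adjusted p = 8.27e-09). *vha-5*, the membrane subunit of hypodermis and excretory cell, differed by -4.17 ± 0.46. *vha-2*, a proteolipid subunit and the most abundant of the list, still had 110, 103.3 and 129 TPM in muscle cells against 684, 795 and 785 TPM in all cells (-2.72 ± 0.28).

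Markers of other tissues were low in muscle cells but were not at 0. All 17 intestinal genes tested were lower (median -3.83) and their summed level was 362, 155 and 382 TPM in muscle cells and 5888, 5123 and 6695 TPM in all cells. *act-5*, the actin of the intestinal brush border, had between 17.3 and 25.8 TPM in muscle cells and between 679 and 877 TPM in all cells (-5.19 ± 0.44, limma adjusted p = 1.06e-08). *pept-1*, the peptide transporter of the gut, differed by -5.01 ± 0.43 and the protease gene *asp-1* by -4.35 ± 0.51. The 11 hypodermal genes were all lower as well (median -3.96). Their sum was 120, 183 and 298 TPM in muscle cells and 4222, 3497 and 3787 TPM in all cells, and *bli-1*, a collagen of the adult cuticle, had 0.318, 1.06 and 1.54 TPM in muscle cells and 135, 78.3 and 57.8 TPM in all cells (-5.50 ± 0.34, limma adjusted p = 6.46e-10). Among 136 tested cuticle collagens 2 were higher, 31 did not pass and the rest were lower, with a median of -3.76.

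Genes of pharyngeal muscle, which pumps food, were low in the sorted cells. All 7 pharyngeal genes were lower (median -3.55), and their sum was 5.94, 15.4 and 40.2 TPM in muscle cells and 358, 308 and 221 TPM in all cells. The pharyngeal myosins *myo-1* and *myo-2* had between 0.154 and 4.05 TPM and between 0.498 and 6.15 TPM in muscle cells, against 21.5 to 55.9 TPM and 20.7 to 56.1 TPM in all cells (-4.0 ± 0.60 and -3.55 ± 0.60). *tni-4*, the troponin I of the pharynx, differed by -4.06 ± 0.53 (limma adjusted p = 2.43e-06), whereas *tni-3* rose.

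Neuronal and germline genes were depleted less, close to the median of all genes, of which 59.4% were lower. Of 17 tested neuronal genes 13 were lower and none higher (median -1.39), and under median-of-ratios scaling these counts were 6 lower and 1 higher, under quantile normalization 5 lower and 3 higher. *egl-21* and *egl-3*, enzymes that process neuropeptides, differed by -2.25 ± 0.45 and -2.06 ± 0.50. *snb-1*, which encodes synaptobrevin, had 91.0, 96 and 124 TPM in muscle cells and 102, 101 and 102.9 TPM in all cells (0.01 ± 0.30, limma adjusted p = 0.976). Of 16 germline genes 15 were lower (median -1.71), and 6 were lower under either of the other scalings. *spn-4*, a translational regulator of oocytes and embryos, had 0.598, 4.45 and 11.1 TPM in muscle cells and 16.19, 23.4 and 52.9 TPM in all cells (-2.58 ± 0.60).

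Yolk and sperm transcripts were highest in replicate 3 of both populations. *vit-2*, a yolk protein gene of the adult intestine, had 1.17, 0.262 and 15.3 TPM in muscle cells and 41.8, 46.2 and 615 TPM in all cells (-4.92 ± 1.11, limma adjusted p = 8.02e-04). The major sperm proteins summed to 299, 328 and 2674 TPM in muscle cells and 3406, 3155 and 12499 TPM in all cells. Of 30 tested members 28 were lower, but 3 were lower without muscle cell replicate 1, and the near-identical members of this family share reads. Within replicate 3 all cells were still above muscle cells. Sums of intestinal, germline and cuticle collagen genes were also highest in replicate 3 of both populations. Cuticle collagens summed to 963, 1371 and 3078 TPM in muscle cells and 27460, 27748 and 49702 TPM in all cells. Sums of hypodermal and pharyngeal genes were highest in replicate 3 among muscle cells, at 298 and 40.2 TPM, but not among all cells.

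Of 31 tested insulin-like peptide genes 21 were lower in muscle cells and 1 was higher. Their median of -1.29 lay near that of all genes, -1.09, of which 59.4% were lower, so that the count does not set the family apart. *ins-27*, an insulin-like peptide gene, had 1210, 934 and 576 TPM in muscle cells and 189, 204 and 107 TPM in all cells (2.42 ± 0.32, limma adjusted p = 3.00e-06), and it was higher by 3.53 under median-of-ratios scaling and by 2.64 under quantile normalization. It made up most of the summed level of the family in muscle cells, which was 1247, 988 and 661 TPM, against 412, 475 and 337 TPM in all cells. *ins-7*, an agonist of DAF-2 made in the intestine and neurons, was listed at 0, 0.132 and 0.526 TPM in muscle cells and had 8.84, 6.45 and 7.0 TPM in all cells (-2.80 ± 0.19). *ins-4* and *ins-35* differed by -2.84 ± 0.57 and -3.53 ± 0.69. Of 100 neuropeptide precursor genes tested 82 were lower and 1 higher, and the largest decreases were in *nlp-24* and *nlp-34* (-4.32 ± 0.61 and -4.26 ± 0.86). The higher gene, *nlp-23*, named after its values were seen, had 34.6, 6.31 and 8.85 TPM in muscle cells and 0.918 to 1.39 TPM in all cells. Under median-of-ratios scaling 6 insulin-like and 28 neuropeptide genes were lower, and without muscle cell replicate 1 the numbers were 11 and 68.

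The receptor and kinases that act upstream of DAF-16 were present at low levels in muscle cells. Of 10 tested genes 6 were lower and none higher, with a median of -0.90, which lies close to that of all genes and became -0.23 under median-of-ratios scaling and 0.31 under quantile normalization. Without muscle cell replicate 1, 2 genes were lower and 1 higher. *sgk-1*, a serine/threonine kinase related to AKT, stood out with 0.525, 0.463 and 1.33 TPM in muscle cells and 23.2, 24.7 and 20.0 TPM in all cells (-3.77 ± 0.30, limma adjusted p = 5.11e-09), with -2.76 under median-of-ratios scaling and -2.59 under quantile normalization. *daf-2* had 1.60, 5.79 and 5.80 TPM in muscle cells and 12.5, 10.01 and 9.19 TPM in all cells (-1.22 ± 0.38, limma adjusted p = 0.00887). Its difference was -0.29 under median-of-ratios scaling and turned to 0.12 under quantile normalization, and without muscle cell replicate 1 it did not pass (limma adjusted p = 0.0748). *age-1*, the catalytic subunit of phosphoinositide 3-kinase, behaved likewise with -1.19 ± 0.36, -0.37 and 0.27. The reads still assigned to *daf-16* in the double mutant summed to 11.8, 19 and 28.7 TPM in muscle cells and 50.7, 61.4 and 55.3 TPM in all cells, all of them from the 5 transcripts not listed at 0.

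Inducible heat shock genes were higher in muscle cells, and the chaperone genes *hsp-3* and *hsp-4* of the endoplasmic reticulum were lower. *hsp-16.48*, an inducible small heat shock protein that prevents protein aggregation, had 454, 816 and 184 TPM in muscle cells and 9.09, 77.5 and 19.3 TPM in all cells (4.02 ± 0.90, limma adjusted p = 7.05e-04). Its level varied widely between replicates of both populations, and the groups did not overlap. *hsp-70*, an inducible cytosolic chaperone, had 4.59, 14.9 and 4.93 TPM in muscle cells and 1.75, 0.543 and 0.426 TPM in all cells (2.15 ± 0.45). *hsp-4*, the BiP chaperone of the endoplasmic reticulum, had 7.32, 20.5 and 22.4 TPM in muscle cells and 146, 129 and 83.3 TPM in all cells (-2.86 ± 0.54). *hsp-1*, the constitutive cytosolic HSP70, did not pass (-0.29 ± 0.34, limma adjusted p = 0.465). Of 16 tested genes of the list 6 were higher and 3 lower, and its median of -0.12 turned positive under both other scalings. Without muscle cell replicate 1, 4 were higher and 2 lower. The genes of the *hsp-16* family are near-identical in pairs and share reads.

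Housekeeping families did not move together with either muscle or other tissues. Of 78 ribosomal protein genes 4 were higher and 7 lower, with a median of 0.15, while median-of-ratios scaling gave 65 higher and none lower and quantile normalization gave 1 higher and 37 lower, so that no direction can be given for this family. Their summed level overlapped, with 442824, 377835 and 330953 TPM in muscle cells and 438010, 402581 and 378145 TPM in all cells. *rpl-1*, a ribosomal protein of the large subunit, was an exception with 8247, 7680 and 8195 TPM in muscle cells and 3059, 2519 and 2235 TPM in all cells (1.64 ± 0.25), higher under all 3 scalings. The reference genes *rpl-17* and *pmp-3* gave 0.26 ± 0.22 and -0.23 ± 0.43 and did not pass. Of 20 proteasome genes 1, *rpt-2*, was lower, and its difference of -0.73 ± 0.30 turned to 0.36 under median-of-ratios scaling, where 15 of the 20 genes were higher. It did not pass without muscle cell replicate 1 (limma adjusted p = 0.227).

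The gene with the largest increase of all was Y82E9BR.6, which had 488, 157 and 320 TPM in muscle cells and 12.1, 12.3 and 5.89 TPM in all cells (4.77 ± 0.70, limma adjusted p = 9.32e-06). *sfrp-1*, a secreted Frizzled-related protein that antagonizes Wnt signals, had 65.9, 57.2 and 87.6 TPM in muscle cells and 4.90, 5.41 and 3.71 TPM in all cells (3.64 ± 0.71). *dlc-3*, a dynein light chain, was higher by 3.42 ± 0.39, T04A6.1 by 3.75 ± 0.53 and the glutamine- and asparagine-rich protein *pqn-48* by 3.55 ± 0.30. The 15 largest increases and decreases were taken among genes whose libraries did not overlap between the 2 populations.

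On the lower side the largest differences were in K06A4.7 and *bcf-1*. K06A4.7 had 5.97, 1.48 and 1.07 TPM in muscle cells and 237, 254 and 293 TPM in all cells (-6.31 ± 0.60, limma adjusted p = 4.69e-08), and *bcf-1* had 1.62, 1.37 and 7.93 TPM in muscle cells and 252, 291 and 269 TPM in all cells (-6.15 ± 0.50). The infection response genes *irg-7* and *irg-8* differed by -5.85 ± 0.61 and -5.48 ± 0.75, and *npa-1*, a lipid-binding polyprotein, by -5.45 ± 0.54. Y59E9AR.1 was listed at 0 in all 3 muscle cell libraries and had 40.7, 47.6 and 136 TPM in all cells. Since 1 was added to each TPM before the logarithm, differences of genes near 0 are understated.

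The 12 candidates that the study names as muscle DAF-16 targets were chosen by the study with these libraries among its data, so that their direction here is not independent evidence. Of 11 that were found, 5 were higher in muscle cells of the double mutant and none was lower (median 0.76). Y43F8B.1 had 233, 274 and 295 TPM in muscle cells and 53.4, 49.9 and 42.7 TPM in all cells (2.43 ± 0.30, limma adjusted p = 1.33e-06), and F23D12.7 was higher by 2.37 ± 0.25. The water channel gene *aqp-2* (1.60 ± 0.32), *unc-78* (1.30 ± 0.27), which promotes actin filament disassembly, and the calcium-binding protein gene *cex-1* were the others. *cex-1* had 114, 212 and 215 TPM in muscle cells and 49.4, 97.6 and 122.4 TPM in all cells (1.04 ± 0.33, limma adjusted p = 0.0103), so that its groups overlapped although within each replicate muscle cells were higher. C54F6.5 had 12, 15.3 and 41.6 TPM in muscle cells and 7.11, 11.2 and 17.6 TPM in all cells (0.76 ± 0.63, limma adjusted p = 0.289), with muscle cells higher within each replicate. *mlcd-1*, which encodes malonyl-CoA decarboxylase, had 2.28, 6.98 and 8.49 TPM in muscle cells and 4.48, 7.84 and 10.3 TPM in all cells and did not pass (limma adjusted p = 0.377), with muscle cells lower within each replicate.

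Genes whose levels followed the mean of the 3 markers most closely over the 24 libraries were *pde-4* (Pearson's r = 0.987), *unc-98* and *nhl-1* (0.981 each) and *unc-94* (0.976), followed by C01C4.3, *mnp-1*, *stn-2*, *lpr-2*, Y45F10B.13 and *acr-15*, with values down to 0.970. *unc-98* is an M-line protein, *unc-94* a tropomodulin that caps thin filaments and *stn-2* a syntrophin of the dystrophin complex. These values are a description, and the libraries share genotypes and preparations.

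The muscle cell enrichment was then set against that in *daf-2(lf)* animals, which differ from the double mutant by having *daf-16*. None of the muscle genes passed the test of the difference between genotypes. In *daf-2(lf)*, 10634 genes (72.3%) passed, of which 1213 (8.24%) were higher and 9421 (64%) lower in muscle cells. The difference of differences passed in 133 genes (0.904%), of which 113 (0.768%) had a larger value in the double mutant and 20 (0.136%) a smaller one, and a replicate block gave 97 and 12. Without *daf-2(lf)* all cells replicate 1, 2 or 3 the total was 80, 72 or 60. None of the 90 tested genes of the 7 muscle lists was among them. The median of these genes was 2.05 in each genotype, or 2.38 in the double mutant without muscle cell replicate 1, and the difference of differences ranged from -0.97 to 1.51 over the list with a median of -0.08. In *unc-54*, muscle cells were above all cells by 2.63 in the double mutant and by 2.43 in *daf-2(lf)*. A p that misses the threshold does not show that these values are the same.

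Among genes that did differ, the largest positive values belonged to transcripts near 0 in all double mutant libraries and abundant in *daf-2(lf)* all cells. Y75B12B.8 had at most 0.184 TPM in double mutant muscle cells and 0.0685 TPM in double mutant all cells, whereas in *daf-2(lf)* it had between 0.709 and 2.52 TPM in muscle cells and between 157 and 320 TPM in all cells. *scl-12*, a secreted SCP/TAPS protein, followed the same pattern, with between 38.8 and 206 TPM in *daf-2(lf)* all cells. On the negative side, *dod-22*, a gene known to be repressed downstream of DAF-16, had 0.265, 0.300 and 0.303 TPM in double mutant muscle cells and 6.12, 5.07 and 7.11 TPM in double mutant all cells. In *daf-2(lf)* it stayed under 1 TPM in both populations.

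Against *daf-16(lf)* animals the contrast between the 2 populations was greater in the double mutant for muscle and intestinal genes. The difference of differences passed in 2686 genes (18.3%), 670 (4.55%) with a larger value in the double mutant and 2016 (13.7%) with a smaller one, and a replicate block gave 549 and 1310. Median-of-ratios scaling gave 936 and 1249 and quantile normalization 1461 and 1597, and without *daf-16(lf)* all cells replicate 2 the total was 1775. Of the 90 tested muscle genes 49 had a larger difference in the double mutant and 1 a smaller one, with a median difference of differences of 1.77. In *daf-16(lf)* the median of the muscle genes was 0.22, and over all genes tested 3105 (21.1%) passed, of which 13 (0.0884%) were higher and 3092 (21%) lower in muscle cells. For *unc-54* the difference was 2.63 in the double mutant and 0.07 in *daf-16(lf)*. Intestinal genes mirrored this, since all 17 had a smaller value in the double mutant, with a median of -3.58.

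Levels differed between the strains, and not in the all cells libraries alone. Ribosomal proteins summed to between 91016 and 176510 TPM over both *daf-16(lf)* populations. In the double mutant their sums were between 330953 and 442824 TPM. The 7 muscle lists summed to between 204582 and 357270 TPM in *daf-16(lf)* muscle cells and to 239651 and 229954 TPM in *daf-16(lf)* all cells. In the double mutant the corresponding sums reached at most 117449 TPM in muscle cells and 17548 TPM in all cells. *unc-54* had 8838 and 11385 TPM in the all cells libraries labelled *daf-16(lf)*, above every muscle cell library of the double mutant. Intestinal genes summed to 362, 155 and 382 TPM in muscle cells and 5888, 5123 and 6695 TPM in all cells of the double mutant, against 70.04 to 1101 TPM in muscle cells and 400.4 and 236 TPM in all cells of *daf-16(lf)*. By these markers the *daf-16(lf)* all cells libraries were rich in muscle and poor in intestine next to all cells of the double mutant. Sums of hypodermal and pharyngeal genes did not follow this. Hypodermal genes summed to 4044 and 2845 TPM in *daf-16(lf)* all cells, against 3497 to 4222 TPM in double mutant all cells. Pharyngeal genes summed to 255 and 387 TPM, against 221 to 358 TPM. Sums rest on the most abundant members. The median log2(TPM + 1) of the hypodermal list was lower in *daf-16(lf)* all cells, 3.81 and 2.90 against 5.97 to 7.09. For the pharyngeal list it was 4.36 and 4.40, against 4.49 to 5.83. Whether a label or the sort lay behind this was not tested, so the 2686 genes and the median of 0.22 rest on libraries of uncertain make-up. The *daf-2* allele, the culture temperature, the preparation and the labels cannot be told apart in this comparison.

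**Figure D5:**
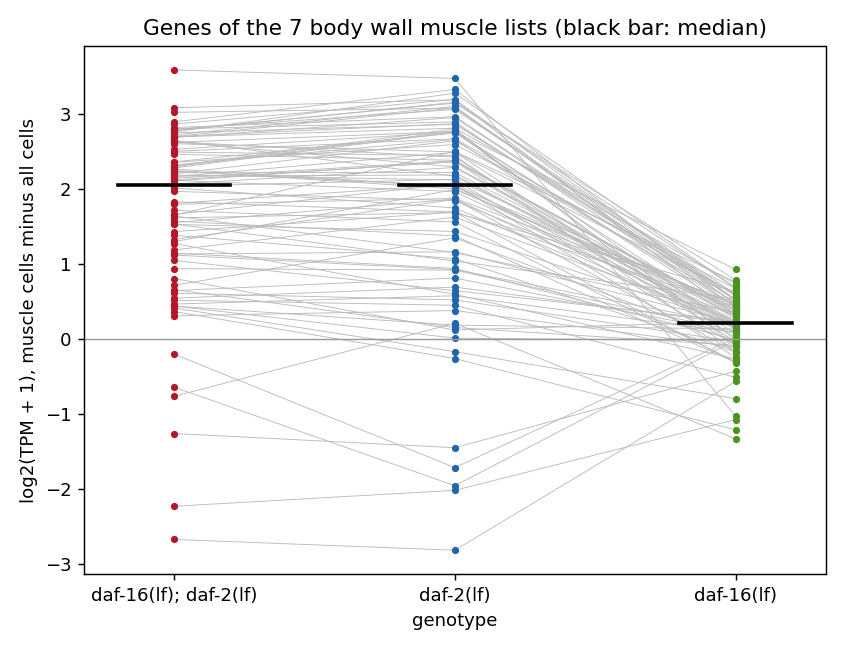
Log2(TPM + 1) of muscle cells minus all cells (y axis) for the 90 tested genes of the 7 body wall muscle lists by genotype (x axis: double mutant, then *daf-2(lf)*, then animals lacking only *daf-16*); points are genes, gray lines join the same gene and black bars are medians. The medians are 2.05, 2.05 and 0.22.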

How the data were processed

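The authors quantified reads against WBcel235 transcripts with Salmon 1.4.0 and deposited TPM per transcript, without counts. The annotation release and the strand setting are not given in the sources used here. TPM of 35749 transcripts was summed by sequence name into 21979 genes, of which 21894 matched the annotation. Genes whose exons overlap by at least 30 bases are uncertain. Libraries were grouped by their labels. limma 3.58.1 (R 4.3.3) was fitted to log2(TPM + 1) of all 24 libraries in 8 groups, allowing the variance to depend on abundance. P-values were adjusted by Benjamini-Hochberg over the 14714 genes that reached 1 TPM in 3 or more libraries. The fit was tested on simulated data. Members and gene lists were chosen with earlier results of these data known. Named are up to 5 genes per list, the 15 largest non-overlapping differences each way, 5 each way per difference of differences, and the study's candidates, markers and reference genes. Other genes are said to have been picked after their values were seen. Same-numbered muscle cell and all cells libraries deviated together across genes in the double mutant (r = 0.21, 0.41 and 0.44) and in *daf-2(lf)* (0.39, 0.33 and 0.17). Between libraries of different number, r was -0.31 to 0.02 in the double mutant and -0.34 to 0.16 in *daf-2(lf)*. The numbers were therefore taken to pair libraries in the replicate block. SEs and adjusted p-values given for single genes come from fits without this block. In *daf-16(lf)*, r was -0.20 and -0.15 over 2 pairs. TPM carries no depth, so no counting error is given. Alternatives were other scalings, pseudocounts, filters, array weights, sample sets, the replicate block and leaving out each library.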

Additional observations from a re-analysis of the deposited data

Results flagged for a closer look

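The enrichment in muscle cells over all cells depended on genotype in 133 genes between the double mutant and *daf-2(lf)* by the test of the difference of differences. Positive values were 6.83 for Y75B12B.8, 6.66 for Y57E12B.1, 6.20 for *scl-12*, 6.01 for Y71F9AM.8 and 5.97 for Y60C6A.3 on the log2 scale. Negative values were -3.78 for F55B12.10, -2.48 for F49H6.5, -2.45 for *skr-21*, -2.29 for C06B8.2 and -2.0 for *dod-22*.

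Between the double mutant and *daf-16(lf)*, 2686 genes differed by the same test. Positive values were 5.84 for Y57G11C.38, 5.61 for *nspc-15*, 4.75 for K02E11.6, 4.62 for *tni-3* and 4.61 for K01D12.1. Negative values were -6.25 for *gfi-1*, -6.05 for *irg-7*, -6.03 for Y59E9AR.1, -5.98 for *bcf-1* and -5.92 for K06A4.7. *nspc-15* was listed at 0 in all 6 double mutant libraries.

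The summed level of the 7 muscle lists in *daf-16(lf)* muscle cells was 204581.7 TPM in replicate 4, far from the 347993 to 357270 TPM of the other 3 libraries. Its gap to the nearest library was 0.939 of the range, above Dixon's critical value for 4 samples. In the same library hypodermal genes summed to 3842 TPM, against 84.0 to 392 TPM in the other 3, cuticle collagens to 37007 TPM, against 1344 to 4546 TPM, and intestinal genes to 1101 TPM, against 70.04 to 273 TPM. The part of other tissues in the low muscle sum was not tested. Chance alone sets apart a library in about 1 in 20 groups for each quantity tested.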

How the results depend on the processing

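Of 126 genes followed through every alternative, 101 stayed on their side of the threshold in all of them and 25 did not or turned their sign; of the 101, *hsp-1* and *glh-1*, called in none, also turned their sign. Under median-of-ratios scaling *rpl-39*, *rpt-2* and *ksr-1* turned to 0.39, 0.36 and 0.80, and 2586 genes were higher and 4554 lower in muscle cells. Under quantile normalization *daf-2*, *age-1*, *pmp-3*, *mlcd-1* and *ksr-1* turned to 0.12, 0.27, 0.94, 1.05 and 1.36, and of 6208 genes called 3462 were higher and 2746 lower. Array weights, whose estimation stopped before it converged, gave 1858 higher genes in the 6 libraries alone and 1887 without the wild-type all cells libraries; these fits were added after the data were seen. The count against *daf-2(lf)* was 673 with array weights, 834 with them and without wild-type all cells, 63 at a minimum of 4 TPM, 238 with no filter, 77 with the 12 *daf-2(lf)* libraries or only the groups compared, 62 with a pseudocount of 0.1 and 61 under quantile normalization. The count against *daf-16(lf)* was 5293 and 5444 with array weights and 1457 with a pseudocount of 0.1. Leaving out 1 library at a time gave 8097 to 10006 genes between muscle cells and all cells (981 to 1415 higher, 6682 to 9025 lower), 60 to 152 against *daf-2(lf)* and 1775 to 2849 against *daf-16(lf)*. Under the replicate block the 3 counts were 9861, 109 and 1859, and with the numbers crossed in *daf-16(lf)* all cells the last was 1969. The causes were not tested.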

Other observations

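Markers of smaller tissues were also read in the double mutant, where 59.4% of all genes tested were lower in muscle cells. Of 10 sperm genes 9 were lower in muscle cells (median -2.22), and 5 were lower without muscle cell replicate 1. Of 5 glial genes 4 were lower (median -2.06), with 1 lower under quantile normalization. Of 4 genes of the gonadal sheath and spermatheca 1 was higher and 1 lower, and none of 3 coelomocyte genes passed in limma, nor at an unadjusted p under 0.05.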
